A study of Arabidopsis thaliana with 12 samples.

Results

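The cytosolic small (40S) ribosomal subunit proteins of Arabidopsis thaliana are described here through 60 of the 23916 genes in the deposited expression table. The members were chosen by locus code, and they fall into 25 families, from RPSa to RPS24, with 1 to 4 members each. The reference annotation describes 55 of them as ribosomal proteins, and the other 5 by a nucleic acid binding or S10 domain. A total of 59 passed the filter on low values, which asked for 1 TPM or more in 3 or more of the 12 libraries. Transcript levels had been measured by RNA sequencing in 10-day-old seedlings kept at 22 °C under long days, 16 h light to 8 h dark. T31A plants are labelled h3.3ko;HTR5 T31A, a knockout of histone H3.3 that carries a copy of the H3.3 gene HTR5. In this copy alanine stands in place of a threonine, at a position where H3.3 differs from H3.1. K36A plants are labelled h3.3ko;HTR5 K36A, the same kind of line with alanine at the lysine that carries H3K36 methylation. The plants labelled efs are mutated in EFS (also called SDG8), a methyltransferase that acts on that lysine. Col is the wild type. Each genotype had 3 libraries. The labels give neither the knockout alleles, nor the efs allele, nor the promoter or number of lines behind the HTR5 copies. A line with the knockout and wild-type HTR5 was not analysed here. What separates T31A or K36A from Col therefore includes knockout, added copy and substitution together. The series set out to examine how the transcriptome changes in these 3 mutants.

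The 40S subunit holds the mRNA, reads its codons and carries the initiation machinery, while the 60S subunit forms the peptide bonds. Each 40S protein is made in equal number to the others per ribosome, and in Arabidopsis nearly every one is encoded by a small family of paralogs with very similar products. Ribosomal protein genes are among the most strongly expressed genes of growing tissue, and their promoters often carry the telo-box and site II elements. Mutants in single members, such as pointed first leaves (pfl), grow slowly and have narrow, pointed leaves.

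Values below are TPM, a length-scaled share of each library's reads, as the authors deposited them, where the length is the gene span with its introns. Differences are on the log2(TPM + 1) scale with the first genotype named minus the second, and a gene is called where limma gave a Benjamini-Hochberg adjusted p under 0.05 over all 19984 genes tested. Where genes are set against each other, a transcript level is used, which is reads per kilobase of the longest transcript, scaled to the same total in each library. Whether libraries of 1 genotype represent separate cultures is not stated, and the p-values reflect only how far these samples spread, possibly for technical reasons. Beside a difference, ± gives its standard error. The recovered reads per library numbered 17621000 to 34098032. HTR8, one of the H3.3 genes, had 12.4 to 18.7 TPM in T31A and 18.1 to 22.5 TPM in K36A, against 108 to 147 TPM in Col. HTR4, another H3.3 gene, had 185 to 202 TPM in T31A and 155 to 175 TPM in K36A, against 234 to 304 TPM in Col, and HTR5, the gene of the added copy, had 633 to 681 TPM in T31A and 587 to 593 TPM in K36A, against 282 to 352 TPM in Col. The EFS transcript had 14.7 to 16.6 TPM in efs, against 13.6 to 17.5 TPM in Col, and so does not check the efs label. Col replicate 1 stood apart: its short transcripts were low by 0.28 relative to its long ones on the log2 scale (a value of -0.28), against -0.08 to 0.17 in the other 11 libraries. This bears on the 40S genes because their transcripts are short, with a median of 1008 bases in the tested members and 1722 bases in all genes tested.

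Transcripts of the 40S genes were higher in each mutant than in Col. Their summed level was 10749, 11496 and 10943 TPM in T31A, 11014, 11091 and 11850 TPM in K36A and 10937, 10746 and 11470 TPM in efs, against 8538, 9499 and 10101 TPM in Col. All 9 mutant libraries lay above all 3 Col libraries, and Col replicate 1 was the lowest of the 12. As a share of recovered reads the members took 0.816% ± 0.024 in T31A, 0.840% ± 0.026 in K36A and 0.808% ± 0.023 in efs, against 0.695% ± 0.064 in Col (SD, n = 3 each). These sums and shares were not corrected for the length trend of Col replicate 1. How the members' differences depend on that library and on the scaling is given below. In whole seedlings, more cells of a type that makes many ribosomes and more 40S transcript per cell cannot be told apart.

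**Figure D1:**
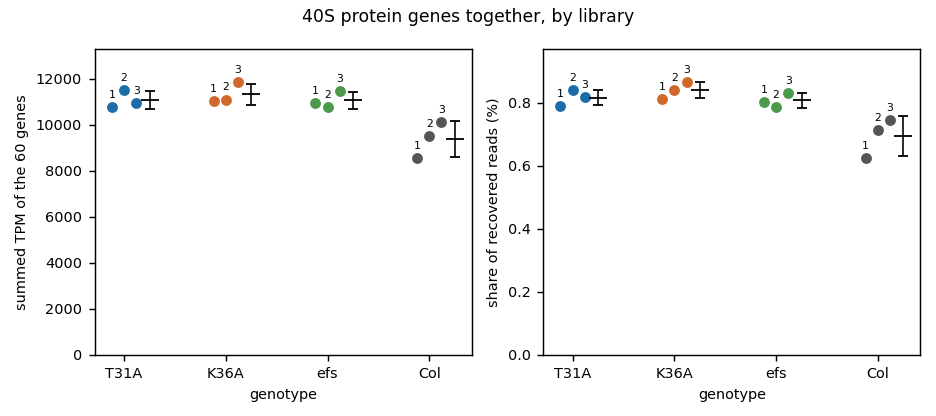
Summed level of the 60 genes in each library, in TPM (left) and as a percentage of recovered reads (right), for T31A, K36A, efs and Col. Points are libraries with their replicate number, and bars are the mean ± SD (n = 3). The mutant libraries sit between 10746 and 11850 TPM, and the Col libraries between 8538 and 10101 TPM.

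In T31A, 28 of the 59 members tested were called higher than in Col and 0 were called lower, while 26.8% of all genes tested were called, 15.7% higher and 11.1% lower. In K36A, 35 members were called higher and 1 lower, beside 31.5% of all genes past the threshold, 22.6% up and 8.90% down. In efs, 35 were called higher and 2 lower, beside 48.8% of all genes past the threshold, 31.4% up and 17.4% down. T31A had a median log2 difference over the members of 0.27, K36A of 0.28 and efs of 0.28, beside 0.04, 0.09 and 0.12 for all genes tested. The changes were small: at 1.5-fold or more besides the adjusted p, 2 members passed in T31A, 1 in K36A and 1 in efs. A total of 21 members were higher in all 3 mutants, 12 in exactly 2 and 11 in exactly 1, and 13 were called in none. Counts and sums over the whole group take in every member, and 48 of the tested genes are described one by one. The 3 comparisons share the Col libraries, so they are not independent of one another.

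**Figure D2:**
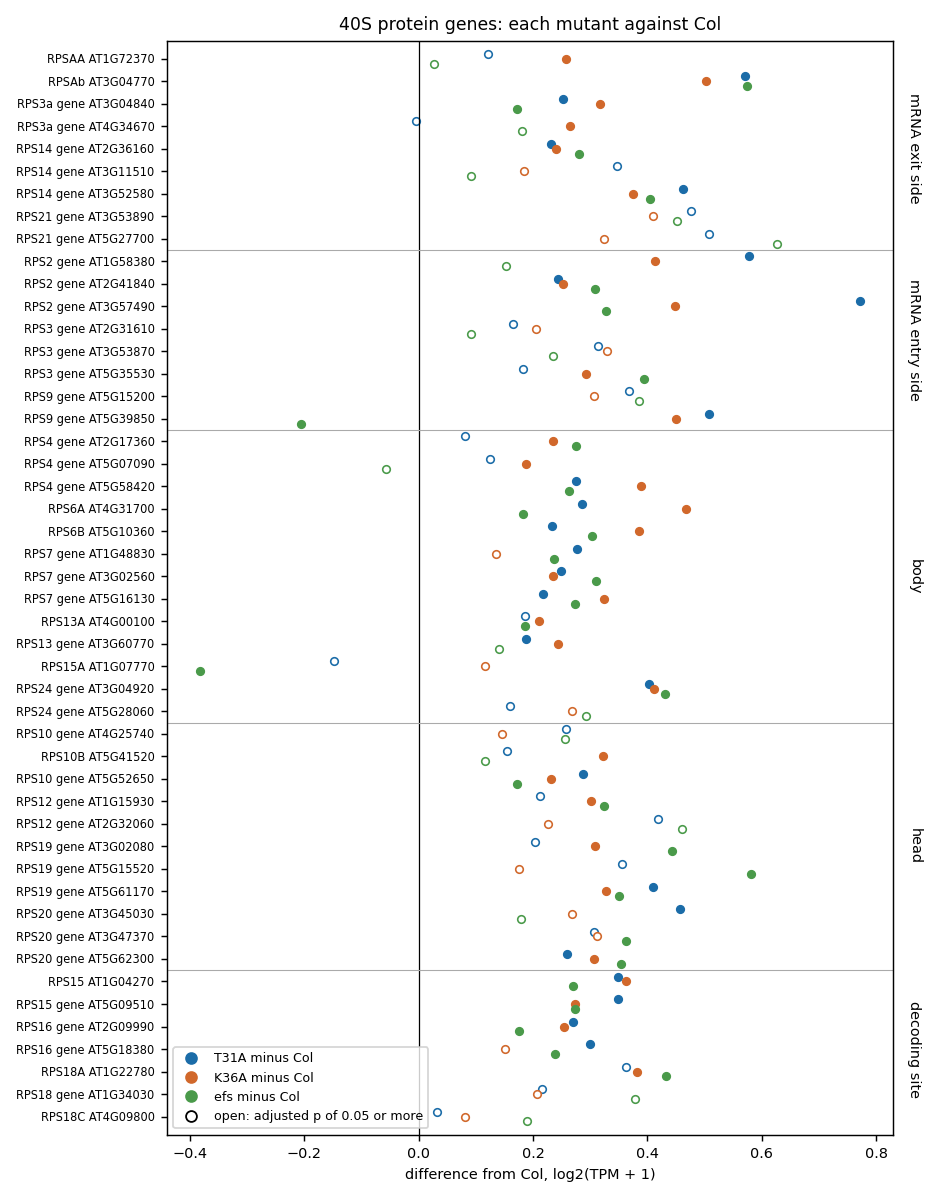
Difference from Col of each of 48 tested genes on the log2(TPM + 1) scale (x axis), by gene (y axis) and position in the subunit. T31A, K36A and efs are shown. Filled points have an adjusted p under 0.05. Most points lie between 0 and 0.5, and the called exceptions below 0 are RPS9 AT5G39850 and RPS15A in efs.

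How many members were called depended on the scaling. With median-of-ratios factors, 18 members were higher in T31A (30.5%, against 12.2% of all genes), 14 in K36A (23.7%, against 13.5%) and 13 in efs (22.0%, against 21.1%). With the trend over transcript length and GC content removed from each library, 20 were higher in T31A (33.9%, against 14.9% of all genes), 9 in K36A (15.3%, against 14.3%) and 14 in efs (23.7%, against 25.1%). The members' share was thus near that of all genes in efs under both settings and in K36A under the second. Over all genes, 58.5% of the calls in T31A, 71.7% in K36A and 64.4% in efs were higher ones, which median-of-ratios scaling took to 45.0%, 46.3% and 47.4%. Without Col replicate 1, T31A had 26 members higher (44.1%, against 18.4% of all genes) and K36A had 30 (50.8%, against 27.9%). In efs, 31 were higher (52.5%, against 35.0%). Of these, 24, 30 and 28 in T31A, K36A and efs were among those called with all libraries. The medians without Col replicate 1 were 0.18, 0.19 and 0.18. With both that library left out and the trend removed, they were 0.144 in T31A, 0.014 in K36A and 0.0647 in efs. The 1.5-fold bound is not counted among the alternatives here or below. Calls that held under each alternative run for them were 16 in T31A, 7 in K36A and 9 in efs, all of them higher, and 1 lower call in K36A. RPSAb was among these in all 3 mutants.

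**Figure D3:**
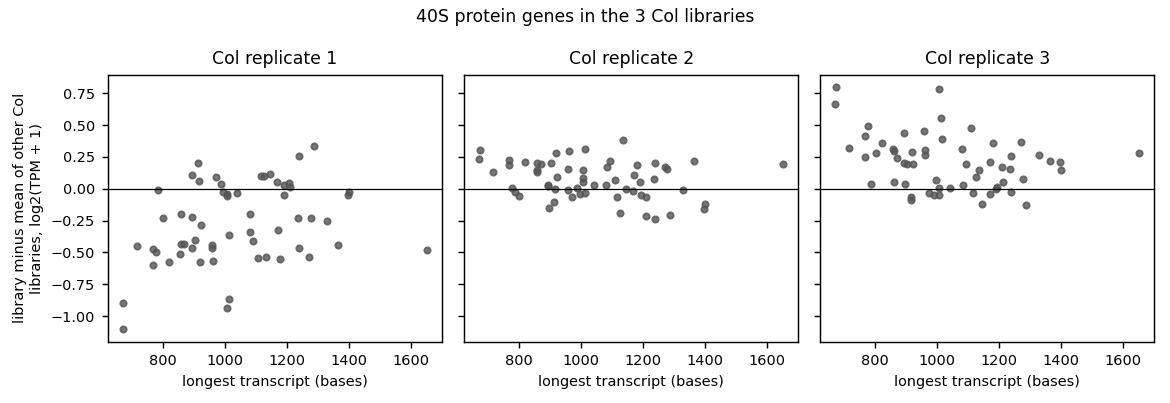
Level of each tested member in 1 Col library minus the mean of the other 2 Col libraries, on the log2(TPM + 1) scale (y axis), against the length of its longest transcript in bases (x axis), for Col replicates 1, 2 and 3. In replicate 1, 45 of the 59 points lie below 0, with a median of -0.44 in the 28 members with transcripts under 1008 bases and -0.20 in the 31 longer ones.

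Marker genes of tissues were also set against Col. Of 8 markers of green tissue, 0 were higher and 4 lower in T31A, 7 lower in K36A and 6 lower in efs, with summed levels of 29316 to 29879 TPM in T31A, 27400 to 27664 TPM in K36A and 27423 to 28449 TPM in efs, against 32674 to 36292 TPM in Col. Of 13 markers of dividing cells, 0 were called in T31A, and 7 were higher (53.8%) and 1 lower in K36A. In efs 3 were lower (23.1%, near the 17.4% of all genes). The summed level of all 13 was 168 to 174 TPM in T31A, 189 to 206 TPM in K36A and 145 to 167 TPM in efs, against 148 to 171 TPM in Col. Of 8 root markers, 3 were lower in T31A, 4 higher in K36A and 2 higher in efs, with summed levels of 2133 to 2226 TPM in T31A, 2685 to 2789 TPM in K36A and 2594 to 2661 TPM in efs, against 2547 to 2744 TPM in Col. No marker gene was at 0 in all libraries of a genotype, and 3 or 4 of the 11 root markers listed averaged under 1 TPM. The rise of the 40S genes stood beside fewer green tissue transcripts in all 3 mutants. The part of these markers in the rise was not tested.

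Proteins on the mRNA exit side of the subunit include RPSa, which the 40S takes up late in its assembly, and RPS3a, RPS14 and RPS21 on the platform. Of their 9 genes, T31A had 4 higher, K36A 6 and efs 4, with 0 lower (T31A 44.4%, K36A 66.7%, efs 44.4% higher). The groups by position are small, and each such share stands beside 15.7% of all genes called higher in T31A, 22.6% in K36A and 31.4% in efs. The minor RPSa gene, RPSAb (AT3G04770, TAIR10.1 chr3:1309273-1311129), had 21.2, 21.2 and 18.2 TPM in T31A, 19.6, 18.0 and 19.98 TPM in K36A and 20.7, 19.5 and 20.3 TPM in efs, against 12.9, 12.2 and 14.7 TPM in Col. Every mutant library lay above every Col library, and the mutants overlapped one another. The difference was 0.57 ± 0.09 (adjusted p = 0.0002) for T31A minus Col, 0.50 ± 0.09 (adjusted p = 0.00059) for K36A minus Col and 0.57 ± 0.09 (adjusted p = 7.3e-05) for efs minus Col. The major gene, RPSAA (AT1G72370), had 379.9, 361 and 386 TPM in T31A, 400.4, 449.6 and 392 TPM in K36A and 359, 348 and 348 TPM in efs, against 404, 314 and 325 TPM in Col. Here Col replicate 1 was the highest Col library and overlapped each mutant. The gene was called only in K36A, by 0.26 ± 0.09 (adjusted p = 0.034), a call that median-of-ratios scaling removed (adjusted p = 0.19). The RPS3a gene AT4G34670 had 338, 365 and 343 TPM in T31A, 387, 465 and 412 TPM in K36A and 392, 381 and 418 TPM in efs, against 394, 314 and 346 TPM in Col. It was higher in K36A only (0.26 ± 0.09, adjusted p = 0.03), where its K36A libraries overlapped those of Col at replicate 1, while its paralog AT3G04840 was higher in all 3 mutants (0.25, 0.32 and 0.17). The call of AT4G34670 was kept under 7 of 18 alternatives, and that of AT3G04840 in efs under 9. The RPS21 genes have the shortest transcripts among the tested members, and neither was called in any mutant. AT5G27700 had 86.4, 123 and 93.3 TPM in T31A, 80.7, 67.6 and 123 TPM in K36A and 98.9, 98.98 and 129.6 TPM in efs, against 41.5, 80.4 and 102 TPM in Col, with Col replicate 1 far below the other Col libraries.

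RPS2, RPS3 and RPS9 line the mRNA entry channel, where RPS3 also takes part in the unwinding of mRNA structure. Of these 8 genes, T31A had 4 higher, K36A 5 and efs 3, with 1 lower in efs (62.5% of them higher in K36A and 37.5% in efs). The share in efs was near the 31.4% of all genes. The 2 minor RPS2 genes moved most in T31A. AT3G57490 (chr3:21279596-21281064) had 44.2, 46.8 and 45.8 TPM in T31A, 37.4, 35.95 and 35.4 TPM in K36A and 33.8, 32.1 and 33.8 TPM in efs, against 23.6, 27.2 and 28.3 TPM in Col. T31A was above K36A, K36A above efs and efs above Col, with no overlap between any of them. Its difference from Col was 0.77 ± 0.07 (adjusted p = 2.3e-06) in T31A, 0.45 ± 0.07 (adjusted p = 0.00035) in K36A and 0.33 ± 0.07 (adjusted p = 0.0017) in efs. AT1G58380 had 78.2, 79.1 and 77.9 TPM in T31A, 71.6, 59.8 and 79.5 TPM in K36A and 55.9, 55.3 and 63.6 TPM in efs, against 41.9, 57.5 and 59.03 TPM in Col. T31A and K36A lay above Col and efs overlapped it. The difference from Col was 0.58 ± 0.12 (adjusted p = 0.0028) in T31A and 0.41 ± 0.12 (adjusted p = 0.018) in K36A, the second lost under 9 of 18 alternatives. The major RPS2 gene, AT2G41840, was higher in all 3 mutants, by 0.24, 0.25 and 0.31. These calls were kept under 7, 7 and 13 of 18 alternatives, and all 3 were lost both with median-of-ratios factors and with the trend removed. Of the 3 RPS3 genes, only AT5G35530 was called, with 169, 174 and 167 TPM in T31A, 183, 176 and 192 TPM in K36A and 194, 191 and 206 TPM in efs, against 129, 158 and 165 TPM in Col. Its difference was 0.29 ± 0.08 (adjusted p = 0.013) in K36A and 0.39 ± 0.08 (adjusted p = 0.00099) in efs, where all mutant libraries lay above those of Col. The call in K36A was kept under 12 of 18 alternatives, and that in efs under 18.

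The RPS9 pair held the one member that moved in opposite directions. The minor gene AT5G39850 (chr5:15949910-15951475) had 53.4, 52.03 and 51.7 TPM in T31A, 47.6, 50.9 and 52.5 TPM in K36A and 31.6, 29.4 and 33.7 TPM in efs, against 35.9, 37.01 and 36.6 TPM in Col. T31A and K36A lay above all Col libraries, and efs lay below them. The difference from Col was 0.51 ± 0.06 (adjusted p = 4.8e-05) in T31A, 0.45 ± 0.06 (adjusted p = 0.00016) in K36A and -0.21 ± 0.06 (adjusted p = 0.016) in efs. The lower call in efs was lost in the fit on efs and Col alone (adjusted p = 0.053) and without efs replicate 2 (adjusted p = 0.086). The difference between mutants held under all 17 alternatives: 0.71 ± 0.06 (adjusted p = 8.8e-07) for T31A minus efs and 0.66 ± 0.06 (adjusted p = 1.8e-06) for K36A minus efs. The major gene AT5G15200 had 314, 396 and 318 TPM in T31A, 319.6, 264 and 413 TPM in K36A and 319, 327 and 395 TPM in efs, against 171, 283 and 380.0 TPM in Col. Its Col libraries spread from 171 to 380 TPM, the groups overlapped, and it was called in no comparison. The coding sequences of the pair are 80.8% identical over 594 aligned bases.

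**Figure D4:**
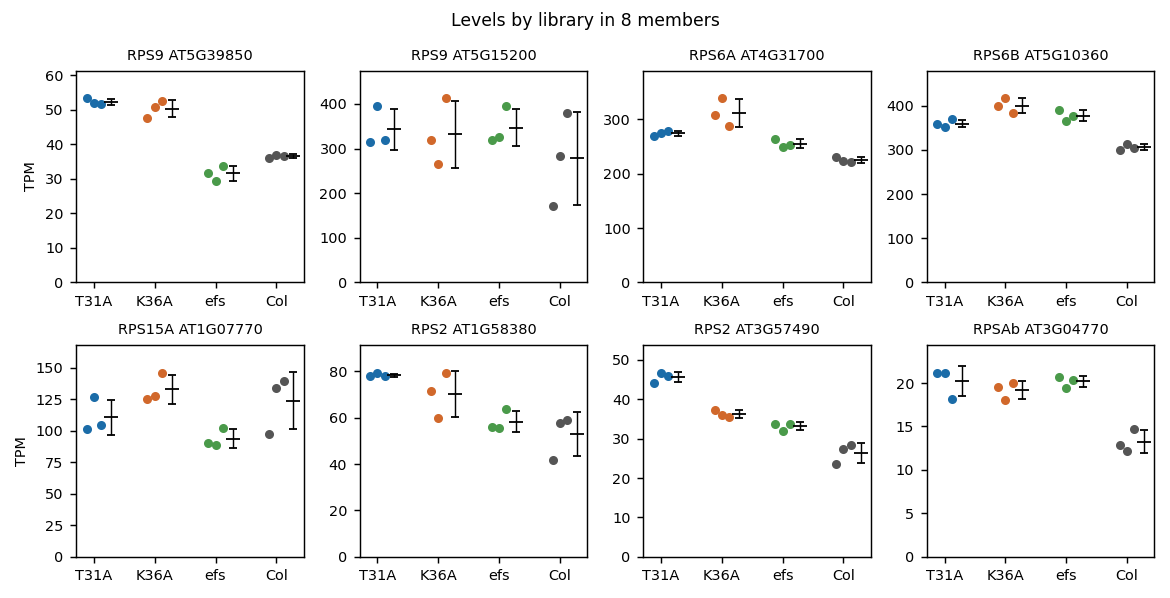
TPM (y axis) in each library of T31A, K36A, efs and Col for 8 members, with 1 panel per gene. Points are libraries and bars the mean ± SD (n = 3). RPS9 AT5G39850 sits between 29.4 and 33.7 TPM in efs and between 35.9 and 37.0 TPM in Col, while RPSAb sits between 18.2 and 21.2 TPM in T31A and between 12.2 and 14.7 TPM in Col.

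Proteins of the body of the subunit include RPS6, the protein that S6 kinase phosphorylates downstream of TOR, and RPS4, RPS7, RPS13, RPS15a and RPS24. Of their 13 genes, T31A had 8 higher, K36A 10 and efs 9, with 1 lower in efs (T31A 61.5%, K36A 76.9%, efs 69.2% higher). Both RPS6 genes were higher in all 3 mutants. RPS6A (AT4G31700) had 269.6, 274 and 278 TPM in T31A, 308, 339 and 288 TPM in K36A and 264, 248 and 253 TPM in efs, against 230.3, 223 and 221 TPM in Col. All mutant libraries lay above Col, and the K36A libraries were above those of T31A and efs. The difference was 0.29 ± 0.06 (adjusted p = 0.0037) in T31A, 0.47 ± 0.06 (adjusted p = 8.6e-05) in K36A and 0.18 ± 0.06 (adjusted p = 0.026) in efs, the last not called after median-of-ratios scaling (adjusted p = 0.41). RPS6B (AT5G10360) had 359, 351 and 369 TPM in T31A, 399, 417 and 384 TPM in K36A and 390.1, 365 and 377 TPM in efs, against 299, 313 and 305 TPM in Col. Again no mutant library overlapped Col, and the difference was 0.23 ± 0.06 (adjusted p = 0.0065) in T31A, 0.38 ± 0.06 (adjusted p = 0.00017) in K36A and 0.30 ± 0.06 (adjusted p = 0.00045) in efs. The RPS6 pair together had a transcript level of 728 ± 14.96 in T31A, 815 ± 51.3 in K36A and 723 ± 22.9 in efs, against 611 ± 6.33 in Col (SD, n = 3 each), so the Col libraries were close to one another here.

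RPS15A (AT1G07770) is the other member that was lower in efs, with 101, 127 and 105 TPM in T31A, 125, 127 and 146 TPM in K36A and 90.2, 88.7 and 102 TPM in efs, against 97.8, 134 and 139.6 TPM in Col. The groups overlapped and the difference in efs was -0.38 ± 0.12 (adjusted p = 0.019). It was lost when either of efs replicates 1 and 2 or either of Col replicates 2 and 3 was left out (adjusted p = 0.062 to 0.085). Without Col replicate 1 the gene was also called lower in T31A, at -0.31 (adjusted p = 0.029).

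RPS13A (AT4G00100), the pfl2 gene, had 202, 198 and 210.4 TPM in T31A, 206, 225 and 191 TPM in K36A and 212, 201 and 197 TPM in efs, against 187, 173 and 176 TPM in Col. All mutant libraries lay above Col. The differences were 0.19 ± 0.07 (adjusted p = 0.051), 0.21 ± 0.07 (adjusted p = 0.026) and 0.19 ± 0.07 (adjusted p = 0.031) in T31A, K36A and efs, and in K36A the value was -0.0197 with the length and GC trend removed. The K36A and efs calls were each kept under 7 of 18 alternatives. The RPS4 gene AT2G17360 had 196, 202 and 202 TPM in T31A, 221, 232 and 216 TPM in K36A and 228, 228 and 231 TPM in efs, against 190.3, 184 and 194 TPM in Col. Its T31A libraries stood between those of Col and of the other mutants without overlap, and it was called in K36A (0.23) and efs (0.27 ± 0.05, adjusted p = 0.00059), the K36A call being kept under 12 of 18 alternatives. The 3 RPS7 genes were higher in all 3 mutants, apart from AT1G48830 in K36A, with differences of 0.22 to 0.32 where called. AT1G48830 kept its calls in T31A and efs under 11 and 9 of 18 alternatives.

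Proteins of the head of the subunit include RPS10, RPS12, RPS19 and RPS20, of which RPS19 is needed for the processing of the 40S rRNA precursor in yeast and human cells. Of their 11 genes, T31A had 4 higher, K36A 6 and efs 7, with 0 lower (T31A 36.4%, K36A 54.5%, efs 63.6% higher). The RPS19 genes were called most in efs. AT3G02080 had 208, 211 and 219 TPM in T31A, 235, 222 and 230.1 TPM in K36A and 261, 249.6 and 244 TPM in efs, against 153, 203 and 202 TPM in Col. The efs libraries were the highest and the Col libraries the lowest, with no overlap between genotypes, and the difference was 0.31 ± 0.09 (adjusted p = 0.017) in K36A and 0.44 ± 0.09 (adjusted p = 0.00089) in efs. In K36A the call was kept under 11 of 18 alternatives, and the difference was -0.0137 with Col replicate 1 left out and the trend removed. The minor RPS19 gene AT5G15520 had 15.2, 19.03 and 16.7 TPM in T31A, 14.3, 11.8 and 19.3 TPM in K36A and 21.1, 19.6 and 19.2 TPM in efs, against 9.93, 14.2 and 15.6 TPM in Col. It was called in efs alone, by 0.58 ± 0.16 (adjusted p = 0.0092), where the libraries did not overlap those of Col, and its gene span overlaps a neighbour on the opposite strand. The 5 genes of RPS10 and RPS12 had differences from Col of 0.12 to 0.46. The RPS10 gene AT5G52650 was called in all 3 mutants (0.29, 0.23 and 0.17), RPS10B in K36A, the RPS12 gene AT1G15930 in K36A and efs, and the others, AT4G25740 and AT2G32060, in none. The calls of AT5G52650 were kept under 18, 12 and 8 of 18 alternatives in T31A, K36A and efs, and those of AT1G15930 under 5 in K36A and 9 in efs.

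RPS15, RPS16, RPS18 and RPS23 reach towards the decoding site and the tRNAs. Of the 7 tested genes, T31A had 4 higher, K36A 4 and efs 5, with 0 lower (T31A 57.1%, K36A 57.1%, efs 71.4% higher). RPS18A (AT1G22780), the pfl gene, had 121, 145 and 130.1 TPM in T31A, 130.1, 119.8 and 153 TPM in K36A and 138, 135 and 143 TPM in efs, against 81.1, 103 and 129 TPM in Col. Only efs lay wholly above Col, whose own libraries spread from 81.1 to 129 TPM. The differences were 0.36 ± 0.13 (adjusted p = 0.056) in T31A, 0.38 ± 0.13 (adjusted p = 0.04) in K36A and 0.43 ± 0.13 (adjusted p = 0.015) in efs, and without Col replicate 1 the K36A and efs calls were lost (adjusted p = 0.13 and 0.052). RPS18C and the RPS18 gene AT1G34030 were called in no mutant. Both RPS15 genes were higher in all 3 mutants, RPS15 (AT1G04270) by 0.35, 0.36 and 0.27 and AT5G09510 by 0.35, 0.27 and 0.27. Those of AT5G09510 were kept under 18, 12 and 13 of 18 alternatives. The RPS23 gene AT3G09680 was the 1 member not tested. As the only RPS23 gene among the members, it does not stand for any RPS23 gene outside them. It had 0.298, 0.687 and 0.317 TPM in T31A, 0.36, 0.43 and 0.828 TPM in K36A and 0.671, 0.967 and 0.84 TPM in efs, against 0.279, 0.455 and 0.604 TPM in Col, from 4 to 10 reads a library.

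Few 40S genes were called between the mutants. In T31A minus K36A, 4 members were called higher and 3 lower, while 28.2% of all genes passed the threshold, 10.2% higher and 18.0% lower. In T31A minus efs, 4 were higher and 3 lower, while 39.1% of all genes passed the threshold, 16.7% higher and 22.4% lower. In K36A minus efs, 7 were higher and 2 lower, while 37.4% of all genes passed the threshold, 20.0% higher and 17.4% lower. The median difference of the members was -0.01, -0.00 and -0.02, and 43 of the 59 were called in no comparison between mutants. These values depended on the processing too. With the length and GC trend removed, the T31A minus K36A median lay higher and more members were called in T31A minus efs, as given at the end. The RPS2 gene AT3G57490 was higher in T31A than in K36A (0.32 ± 0.07, adjusted p = 0.0035) and than in efs (0.44 ± 0.07, adjusted p = 0.00019). RPS15A and RPS6A were higher in K36A than in efs, by 0.50 ± 0.12 (adjusted p = 0.0053) and 0.29 ± 0.06 (adjusted p = 0.0023). Lower in T31A than in K36A were AT4G34670 (-0.27 ± 0.09, adjusted p = 0.03), RPS6A (-0.18 ± 0.06, adjusted p = 0.041) and AT2G17360 (-0.15 ± 0.05, adjusted p = 0.039), and each of these 3 calls was lost with median-of-ratios factors.

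Because paralogs make nearly the same protein, the share of each gene in the summed transcript level of its family was also taken. RPSAA had a level of 449 ± 16.9 in T31A, 493 ± 38.95 in K36A and 418 ± 7.81 in efs, against 417 ± 59.2 in Col, and that of the RPS23 gene AT3G09680 was 0.642 ± 0.322, 0.795 ± 0.37 and 1.22 ± 0.22, against 0.662 ± 0.241 in Col (SD, n = 3 each). RPSAA, AT4G34670, the RPS16 gene AT5G18380, AT2G41840 and RPS6B were among the genes close together near the top. Their means did not keep 1 order across the genotypes. RPSAb held 4.23% ± 0.453 of the RPSa transcripts in T31A, 3.69% ± 0.444 in K36A and 4.5% ± 0.101 in efs, against 3.08% ± 0.507 in Col. AT3G57490 held 7.58% ± 0.235 of the RPS2 transcripts in T31A, 6.18% ± 0.419 in K36A and 5.61% ± 0.153 in efs, against 5.45% ± 0.216 in Col. AT5G39850 held 12.6% ± 1.46 of the RPS9 transcripts in T31A, 12.7% ± 2.36 in K36A and 7.87% ± 0.55 in efs, against 11.9% ± 4.16 in Col (SD, n = 3 for all shares). The shares were not tested. Over 48 pairs of paralogs among the members, the coding sequences were 74.5% to 98.3% identical, with a median of 85.1%. In 4 pairs, the RPS16 pair among them, identity reached 95% or more, so the split of reads between such genes is uncertain. Gene spans also overlap neighbours, on the opposite strand for RPSAA, the 3 RPS7 genes, RPS18C, AT5G15520 and AT3G09680, and on the same strand for RPSAb, AT2G41840, AT2G32060, RPS13A and RPS15. How strand was treated in the counting is not stated, and reads from such overlaps may belong to either gene.

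The windows of 250 bases before the annotated gene starts were read from the TAIR10.1 genome. The core of the telo-box was searched as AACCCTA and site II as TGGGCC or TGGGCT, both on either strand, and matches may overlap, as in the palindrome TGGGCCCA, which counts as 2 sites. The core of the telo-box lay in 16 of the 60 windows (26.7%), against 6.56% of 27443 protein-coding genes. Site II lay in 37 (61.7%), against 19.2%, both in 11 (18.3%), against 1.79%, and neither in 18. The RPS9 and RPS6 windows are shown because the RPS9 genes were called differently and the RPS6 genes alike. Capitals mark the matches, each sequence runs 5′ to 3′ on the strand of its gene, and none of the 4 windows overlaps another annotated gene.
RPS9 AT5G15200 (chr5:4936430-4936679, minus strand): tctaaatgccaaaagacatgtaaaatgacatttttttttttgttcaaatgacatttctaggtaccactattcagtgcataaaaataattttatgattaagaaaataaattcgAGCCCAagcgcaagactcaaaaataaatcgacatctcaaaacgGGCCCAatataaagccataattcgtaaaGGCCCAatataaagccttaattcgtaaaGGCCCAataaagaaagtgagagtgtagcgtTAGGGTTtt
RPS9 AT5G39850 (chr5:15949660-15949909, plus strand): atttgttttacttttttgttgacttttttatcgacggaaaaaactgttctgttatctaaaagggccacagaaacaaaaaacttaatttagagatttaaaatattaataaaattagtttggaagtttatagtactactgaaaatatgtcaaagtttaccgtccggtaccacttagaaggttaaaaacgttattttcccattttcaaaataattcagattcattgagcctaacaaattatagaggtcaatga
RPS6A AT4G31700 (chr4:15347805-15348054, minus strand): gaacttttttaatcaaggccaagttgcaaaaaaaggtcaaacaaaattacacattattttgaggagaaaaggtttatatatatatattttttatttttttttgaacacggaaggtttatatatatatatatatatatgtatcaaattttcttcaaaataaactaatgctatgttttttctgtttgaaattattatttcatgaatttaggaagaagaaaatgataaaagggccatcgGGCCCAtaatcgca
RPS6B AT5G10360 (chr5:3260255-3260504, minus strand): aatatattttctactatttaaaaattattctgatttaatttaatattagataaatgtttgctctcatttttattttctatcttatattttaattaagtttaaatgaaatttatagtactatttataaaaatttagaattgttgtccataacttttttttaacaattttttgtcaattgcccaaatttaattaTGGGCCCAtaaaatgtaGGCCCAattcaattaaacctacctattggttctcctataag
The window of AT5G15200 holds 1 match to the core of the telo-box and 4 to site II, and that of AT5G39850 holds 0 of either. RPS6A has 1 site II match and RPS6B has 3. Of the 16 members whose T31A call held under every alternative but the 1.5-fold bound, 8 have a match in their window and 8 have none.

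Other parts of the translation machinery are set beside the 40S genes by counts of called genes. These counts come from the fit on log2(TPM + 1) with all 12 libraries. For these lists they were not recomputed under the other scalings or without Col replicate 1, on which the 40S counts depended. Over all genes tested, T31A had 15.7% higher and 11.1% lower, K36A had 22.6% higher and 8.90% lower, and efs had 31.4% higher and 17.4% lower. The remaining 40S genes, with the 40S-bound scaffold RACK1, numbered 26, of which T31A had 12 higher, K36A 10 and efs 11, with 0 lower. Among them AT2G40590, an RPS26 gene, rose in all 3 mutants, with 80.7 ± 3.99 TPM in T31A, 80.3 ± 5.41 TPM in K36A and 81.5 ± 4.98 TPM in efs, against 59.4 ± 8.03 TPM in Col. The 60S genes had 67 of 122 higher in T31A, 70 in K36A and 75 in efs, with 1 lower in efs, and medians of 0.33, 0.32 and 0.32. The nucleolar genes for rRNA modification and ribosome assembly had 4 of 6 higher in T31A and 5 in each of K36A and efs. The fibrillarin gene FIB1 was at 118 ± 1.96 TPM in T31A, 121 ± 4.5 TPM in K36A and 129 ± 8.9 TPM in efs, against 100.4 ± 7.39 TPM in Col. Of 35 nuclear genes for plastid ribosomal proteins, T31A had 0 higher and 2 lower, K36A had 0 higher and 1 lower, and efs had 1 higher and 5 lower. Here the lower shares, 5.71%, 2.86% and 14.3%, were below those of all genes. Of 11 genes for elongation factors, T31A had 2 higher and 1 lower, K36A had 3 higher and 0 lower, and efs had 3 higher and 2 lower, so the higher shares, 18.2%, 27.3% and 27.3%, were near those of all genes. Of 7 genes of the TOR kinase complex, S6 kinase and TAP46, T31A and K36A each had 1 higher and 1 lower, and efs had 3 higher and 1 lower. The kinases of RPS6 were called in opposite directions in T31A and efs. S6K2 was at 0.26, 0.28 and 0.32 in T31A, K36A and efs (adjusted p = 0.031, 0.022 and 0.0059), and AT3G08730, the gene of the first S6 kinase, at -0.33, -0.19 and -0.54 (adjusted p = 0.0053, 0.07 and 4.8e-05).

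**Figure D5:**
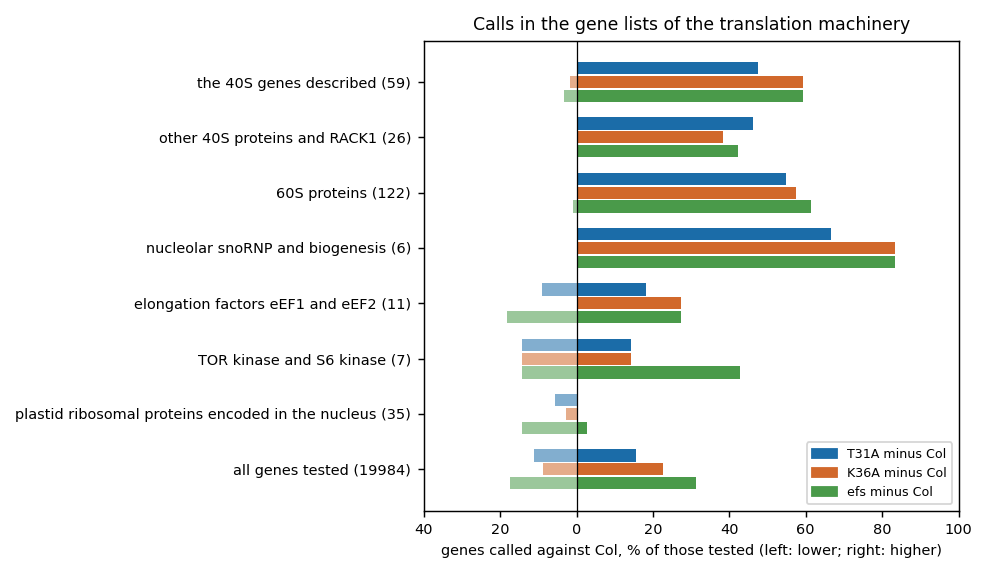
Percentage of tested genes called higher (right of 0, full colour) and lower (left of 0, pale) than Col in T31A, K36A and efs. Rows are the 59 tested members (labelled as the 40S genes described), 6 other gene lists of the translation machinery and all genes tested. The number tested is in brackets. The 40S, 60S and nucleolar lists lie mostly to the right. The few called plastid genes lie to the left, apart from 1 gene in efs, and their lower shares are below those of all genes tested.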

How the data were processed

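RNA sequencing libraries of 12 seedling samples, 3 for each of 4 genotypes, were analysed. The authors deposited 1 table of TPM values per gene, and the submitters' processing notes name fastp 0.20.1, HISAT2 2.1.10 and DESeq2 1.26.0. How reads were counted, and with which strand setting, is not stated per the labels. The deposited TPM values were whole multiples, within 0.01 of a read, of 1 read per gene span, introns included, for 99.9766% to 99.988% of values under 1000 reads. Read numbers and depths were recovered from this, for the 23745 genes also in the TAIR10.1 reference. Genes reaching 1 TPM in 3 or more libraries were fitted with limma 3.58.1 in R 4.3.3 on log2(TPM + 1), with all 4 groups, no block and a mean-variance trend. P-values are two-sided and adjusted over 19984 genes. Fold changes of low genes are understated by the pseudocount of 1. The fit was tried on simulated counts that held no length trend and no shift in scaling between libraries. That trial therefore does not bear on Col replicate 1 or on the choice of scaling. Alternatives changed the pseudocount, filter, scaling, model and libraries. Members given by library were those with the largest called changes from Col or between mutants and those with known mutants, with members untested or low. AT5G15200 and AT5G27700 were chosen after their values were seen. The members and lists were chosen with earlier results of these data known. Results on single genes of some member families are not reported here.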

Additional observations from a re-analysis of the deposited data

Results flagged for a closer look

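The RPS9 gene AT5G39850 was called higher than Col in T31A and K36A and lower in efs, and the difference between the mutants was itself past the threshold in limma. It was 0.71 on the log2(TPM + 1) scale for T31A minus efs and 0.66 for K36A minus efs. In each of the 3 libraries of T31A and of K36A the gene lay above all 3 Col libraries, and in each efs library it lay below them.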

How the results depend on the processing

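Under median-of-ratios factors the members called numbered 18 in T31A, 15 in K36A and 15 in efs against Col, and 4 in T31A minus K36A, and the medians were 0.18 in K36A and 0.17 in efs. With the length and GC trend removed, 11 members were called in K36A and 17 in efs, with medians of 0.0824 and 0.13. For T31A minus K36A the median was then 0.12, and 12 members were called in T31A minus efs. The fits on 2 groups alone called 17 members and 4137 genes in K36A and 13 members in T31A minus efs. Voom on recovered reads, an alternative chosen after seeing the data, called 16 members in K36A and 19 in efs, with medians of 0.19 and 0.17. Higher calls then took in 35.6% of members in T31A, 25.4% in K36A and 27.1% in efs, against 13.2%, 14.1% and 21.6% of all genes. Also chosen after seeing the data, the trend removal without Col replicate 1 gave 15 members in K36A and 14 in efs. The medians were 0.14 in T31A, 0.014 in K36A and 0.0647 in efs. Members called higher were then 39.0% in T31A, 20.3% in K36A and 18.6% in efs, against 14.3%, 15.2% and 24.6% of all genes. In efs the members' share was thus below that of all genes. At 1.5-fold or more, the members called were 2 in T31A, 1 in K36A, 1 in efs, 1 in T31A minus K36A, 1 in T31A minus efs and 2 in K36A minus efs, and the genes called were 1513, 1791, 3464, 1988, 2821 and 2722 in that order. RPS13A (AT4G00100) in K36A turned to -0.0197 with the trend removed, with and without the block, and AT3G02080 in K36A to -0.0137 with the trend removed and Col replicate 1 left out. Leaving out 1 library at a time gave 19 to 40 members in T31A, 26 to 42 in K36A, 27 to 44 in efs, 3 to 7 in T31A minus K36A, 4 in each case in T31A minus efs and 5 to 8 in K36A minus efs. The count in T31A minus K36A, 7 with all libraries, was 3 or 4 without any 1 of the T31A libraries or K36A replicate 1 or 2, and K36A minus efs, 9 with all, was lowest without efs replicate 1. The medians ran from 0.18 to 0.35 in T31A, 0.19 to 0.34 in K36A and 0.18 to 0.33 in efs, in each case lowest without Col replicate 1, and from -0.05 to 0.06, -0.03 to 0.03 and -0.06 to 0.01 between mutants. Deviations of same-numbered libraries from their group means correlated at -0.24 to 0.36, over 0.1 in 6 of 18 pairs, and were not taken to pair samples. Replicate 3 of K36A, efs and Col deviated together, at 0.22 to 0.36. With the replicate block, T31A had 32 members called, K36A 38 and efs 41, with 5, 7 and 7 between mutants. With block and trend removal together, 10 were called in K36A and 16 in efs, with medians of 0.0824 and 0.13, 11 in T31A minus efs, and the median of T31A minus K36A was 0.12. Of all calls in T31A minus K36A, 36.2% were higher, against 48.4% under median-of-ratios factors. Over the differences of 23 members, those that the naming rule picked, 2153 values kept direction and side of the threshold, 215 lost the call, 38 gained one and 3 changed sign. The cause of these shifts was not tested. Depth limits the low members, such as AT3G09680 with 4 to 10 reads.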
